A study of Sus scrofa with 16 samples.

Results

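GFRAL, RET, LEPR and INSR, 4 of the 25880 genes in the count table, encode receptors that read appetite and energy signals. They were chosen by name, as receptors of GDF15, leptin and insulin, and with the fold change of GFRAL between the groups of this study already known. The levels of the 4 genes in the groups are therefore given as a description, with no p-value. All 4 had enough counts to enter the fit, which kept 14319 genes.

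Each of these receptors sits at the cell surface and starts a different chain inside the cell. GFRAL binds the stress hormone GDF15 but has no kinase of its own, so it signals through RET, a receptor tyrosine kinase that also serves the GDNF family of ligands. It is best known from hindbrain neurons that lower food intake. LEPR binds leptin, the hormone by which adipose tissue reports its fat stores, and signals through the kinase JAK2 and the transcription factor STAT3. INSR is itself a tyrosine kinase, which passes the insulin signal through IRS proteins to phosphatidylinositol 3-kinase and AKT. Leptin and insulin receptors are both known from pituitary cells.

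Pituitary RNA came from 16 female Pulawska pigs (gilts), an old Polish breed, that differed in feed conversion, the amount of feed used per unit of body gain. In 8 gilts feed conversion was low (LFC, replicates 1 to 8) and in 8 it was high (HFC, replicates 9 to 16). The labels give an age of 3 months for all of them, whereas the study's methods put the gilts at a higher age when slaughtered, and no treatment, allele or agent is named for either group. The groups differ in a trait that was measured rather than assigned. According to the study's methods the gilts were not related and came from different farms, the whole gland was homogenised, and the libraries did not keep the strand.

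The libraries held 10.97 to 23.06 M counts each, and between 16352 and 17439 genes had a count. The labels' extraction text speaks of fat, so the tissue was checked against markers. GH1, the growth hormone gene, stood at 8577 to 122100 counts per M counts of the library (CPM) in all 16 libraries. The adipocyte genes ADIPOQ, PLIN1 and LEP did not pass 6.47, 2.005 and 0.547 CPM in any. Other adipocyte genes reached higher levels. PLIN4 was at 4.54 to 31.4 CPM in LFC and 4.31 to 69.7 in HFC, and LPL reached 15.1 CPM in HFC. The 8 adipocyte genes measured summed to at most 38.9 CPM in LFC and 108.4 in HFC. LFC replicate 5, HFC replicate 13 and HFC replicate 14 stood apart from the rest on the first principal component of log2 CPM (41.9% of the variance), and HFC replicate 16 on the second (18.5%). In that last library, the 5 anterior pituitary hormone genes measured were low, with a mean log2 CPM of 7.77 against 10.80 to 13.40 in the others, and the 4 melanotroph markers were high, with 11.64 against 5.16 to 9.02.

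GFRAL was the member whose levels differed most between the groups. It lies on chromosome 7 of Sscrofa11.1, from 25749608 to 25806844 (ENSSSCG00000001480), in the RefSeq annotation. Its CPM was 1.21 at the lowest, 3.04 at the median and 8.23 at the highest in LFC. In HFC the lowest was 0.436, the median 1.26 and the highest 2.22. The groups overlapped, yet 6 of the 8 LFC libraries lay above every HFC library, and the overlap came from LFC replicate 5 at 1.21 CPM and LFC replicate 6 at 1.82. On the log2 scale all 8 HFC libraries were below the LFC mean.

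**Figure D1:**
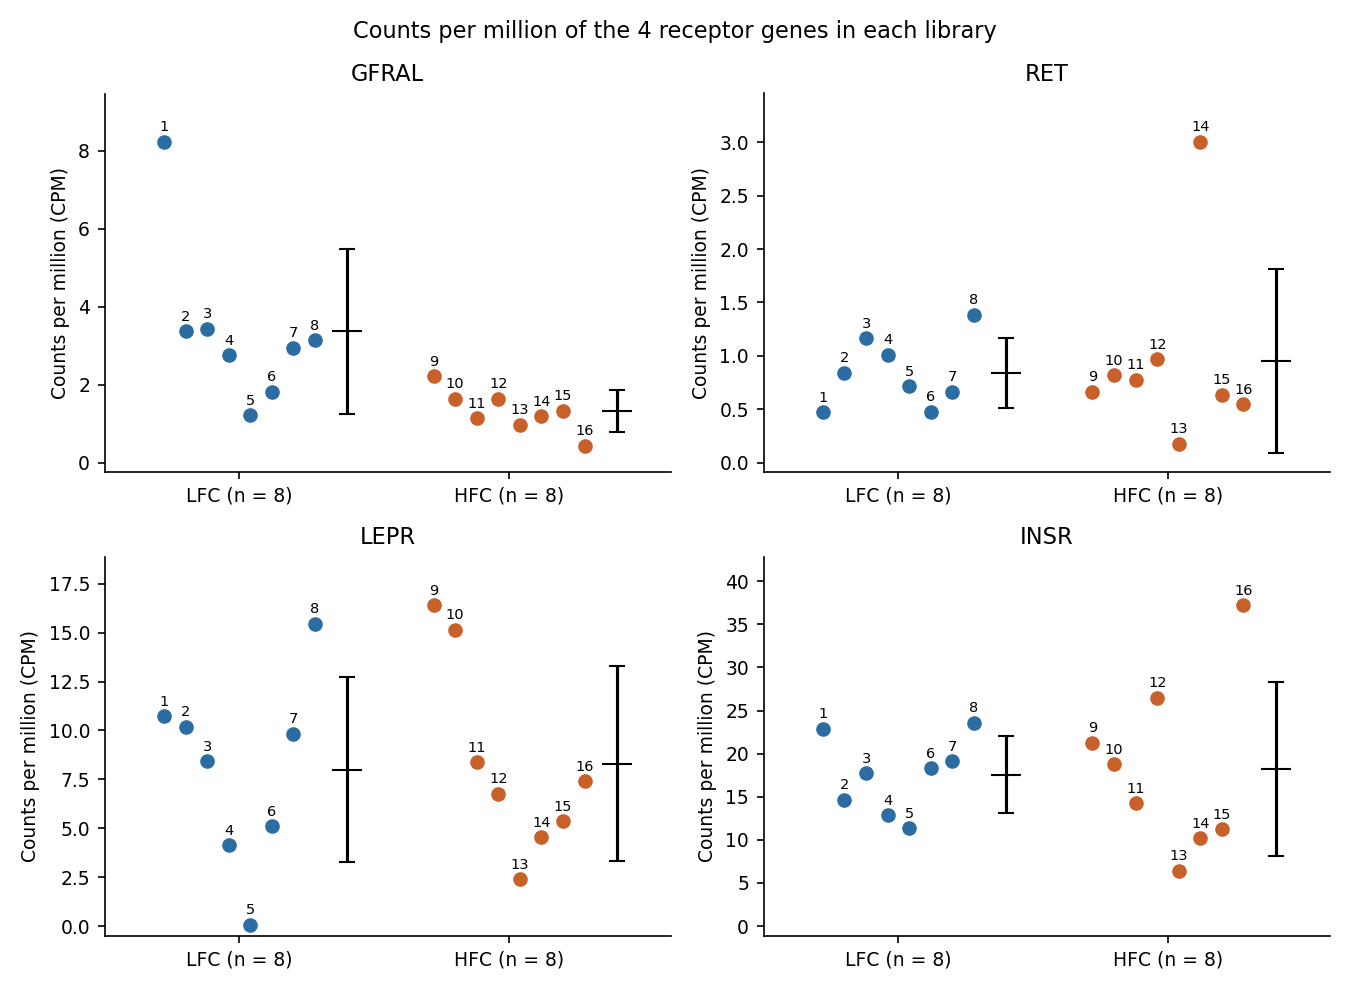
CPM of GFRAL, RET, LEPR and INSR in each library, numbered by replicate, with the mean and SD of each group of 8 beside it as a black bar. LFC replicate 1 is the highest library for GFRAL at 8.23 CPM, HFC replicate 14 for RET at 3.01, HFC replicate 9 for LEPR at 16.4 and HFC replicate 16 for INSR at 37.2.

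Mean GFRAL over the 8 libraries of a group was 3.37 ± 2.11 CPM (SD) in LFC, against 1.32 ± 0.529 in HFC. Means are given below in the same way, each over 8 libraries with its SD. The fit of all genes gave a log2 fold change of -1.32 for HFC over LFC (SE 0.32), or 2.50-fold lower. Of all genes fitted, 17 (0.119%) had a log2 fold change as low or lower. This fold is the value that drew attention to the gene, so it supports nothing further. In a gland taken whole, fewer cells of a type that carries GFRAL and less GFRAL RNA in each such cell cannot be told apart.

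GFRAL rested on few reads. The 8 LFC libraries held 479 counts in all, from 17 to 122 each, and the 8 HFC libraries held 157, from 8 to 30 each. HFC replicate 16, the lowest, had 8 counts, and its exact 95% Poisson interval ran from 0.188 to 0.859 CPM. Counting alone would give a chi-square per degree of freedom near 1, whereas GFRAL reached 21.1 in LFC and 3.36 in HFC. The LFC libraries therefore differed among themselves by more than counting error gives. LFC replicate 1 stood farthest out, at 8.23 CPM against 3.43 in LFC replicate 3, the next highest.

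Single libraries weighed on the size of the difference. Without LFC replicate 1, which held 122 counts, the log2 fold change was -1.04 (SE 0.27), and without HFC replicate 16 it was -1.20 (SE 0.30). It was -1.22 without the 4 libraries that stood apart. Across 30 alternatives of test, scaling, filter and samples, among them the ratio to HMGCLL1 given below, GFRAL stayed between -1.44 and -1.04.

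**Figure D2:**
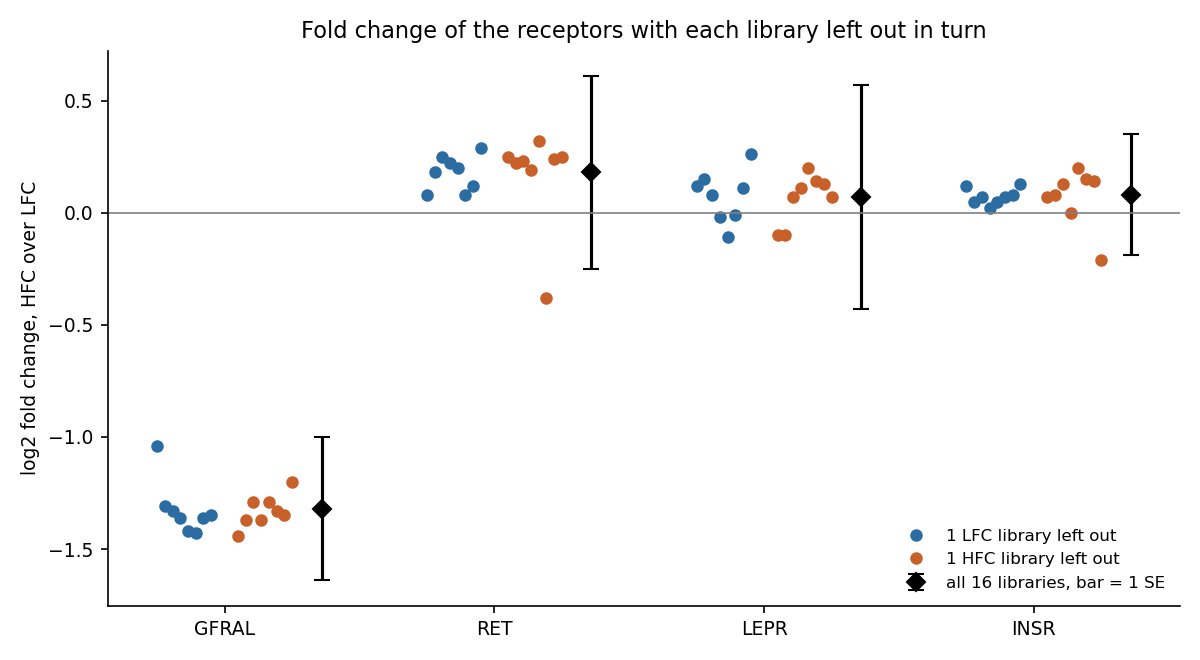
Log2 fold change of HFC over LFC for each receptor gene with all 16 libraries (black diamond, bar 1 SE) and with each library left out in turn (coloured points). GFRAL stays between -1.44 and -1.04, whereas RET falls to -0.38 without HFC replicate 14 and INSR to -0.21 without HFC replicate 16.

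The GFRAL locus overlaps another gene. HMGCLL1, which encodes a lyase that splits hydroxymethylglutaryl-CoA, spans 25596721 to 25784238 on the same chromosome and covers 34.6 kb of GFRAL, or 60.5% of its 57.2 kb. Because the libraries keep no strand, reads from any exons that the genes share cannot be told apart by strand. How the authors' RSEM counts divided such reads was not examined, and exon positions were not used here. HMGCLL1 was compared after the GFRAL values had been seen. Its mean was 19.96 ± 4.97 CPM in LFC against 18.3 ± 3.92 in HFC, which is -0.10 on the log2 scale (SE 0.15, adjusted p = 1 in edgeR).

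GFRAL was also set against HMGCLL1, but this ratio uses the same GFRAL counts and is no second measure of the difference. For every 100 counts of HMGCLL1 there were 8.22 to 34.5 of GFRAL in LFC, with a median of 15.02. In HFC there were 2.28 to 10.7, with a median of 7.43. Only LFC replicate 6, at 8.22, lay within the HFC range. The log2 ratio of the counts was lower in HFC by 1.18 (difference -1.18, SE 0.32). HCRTR2, the next gene on the chromosome at a distance of 23.7 kb, encodes an orexin receptor and had 2 counts in all libraries together.

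**Figure D3:**
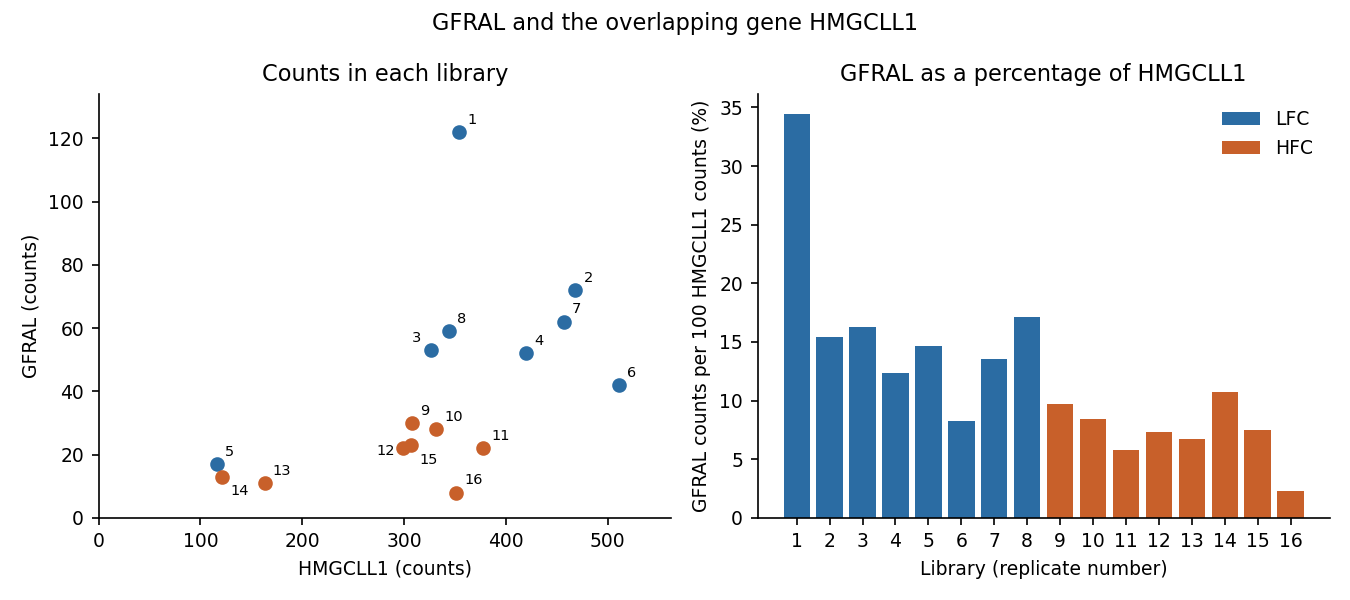
Left, GFRAL counts against HMGCLL1 counts in each library, numbered by replicate. Right, GFRAL counts as a percentage of HMGCLL1 counts, where 7 of the 8 LFC libraries stand above all HFC libraries, the highest of which is HFC replicate 14 at 10.7%.

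Cell type markers moved with GFRAL in several libraries. HFC replicate 16, the lowest for GFRAL, was also the lowest for the gonadotroph list, with a mean log2 CPM of 4.86 over 3 markers measured of 5 against 6.17 to 7.81 in the others. LFC replicate 1, the highest for GFRAL, was the highest for the same list at 7.81. With group means removed, GFRAL and the gonadotroph list had r = 0.76 over 16 libraries (permutation p = 0.00133, adjusted 0.0904) and a Spearman coefficient of 0.78 (permutation p = 0.00088, adjusted 0.0598). Neither passed the adjustment over 68 pairs of a member and a measure. Without the 2 libraries farthest out on the list r was 0.50. Without the 4 that stood apart it was 0.44 over 12 libraries (permutation p = 0.188, adjusted 0.645). Without HFC replicate 16 alone it was 0.62 (permutation p = 0.0221, adjusted 0.293). The relation was thus weaker, though still positive, when those libraries were left out. A positive r was not particular to this list. HFC replicate 16 was also the lowest for the lactotroph list, at 5.04, and for the anterior hormone list, at 7.77. With the lactotroph list r was 0.54 (permutation p = 0.0229, adjusted 0.36). With the hormone list it was 0.53 (permutation p = 0.0415, adjusted 0.365). Without the 2 libraries farthest out these were 0.16 and 0.25. For the somatotroph and corticotroph lists r was 0.01 and 0.27.

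The melanotroph list ran the other way. GFRAL had r = -0.59 with it (permutation p = 0.00837, adjusted 0.285) and a Spearman coefficient of -0.55 (permutation p = 0.0405, adjusted 0.442). Without HFC replicate 16 r was -0.31 (permutation p = 0.129, adjusted 0.483). Without the 4 libraries that stood apart r was -0.53 over 12 libraries (permutation p = 0.0111, adjusted 0.529). The Spearman coefficient was then -0.68 (permutation p = 0.00985, adjusted 0.207). Melanotroph markers, 4 measured of 5, were also higher in HFC, with a mean log2 CPM of 7.69 against 5.93 in LFC. Their summed level was 25940 to 223100 CPM in HFC and 6377 to 58130 in LFC, nearly all of it POMC. The gonadotroph list had a summed level of 499.3 to 6191 CPM in HFC and 1993 to 8073 in LFC. Among these markers PAX7, which defines melanotrophs, was at 0 in the lowest LFC library, and all gonadotroph markers had counts in every library. The part of either cell type in the GFRAL difference was not tested.

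**Figure D4:**
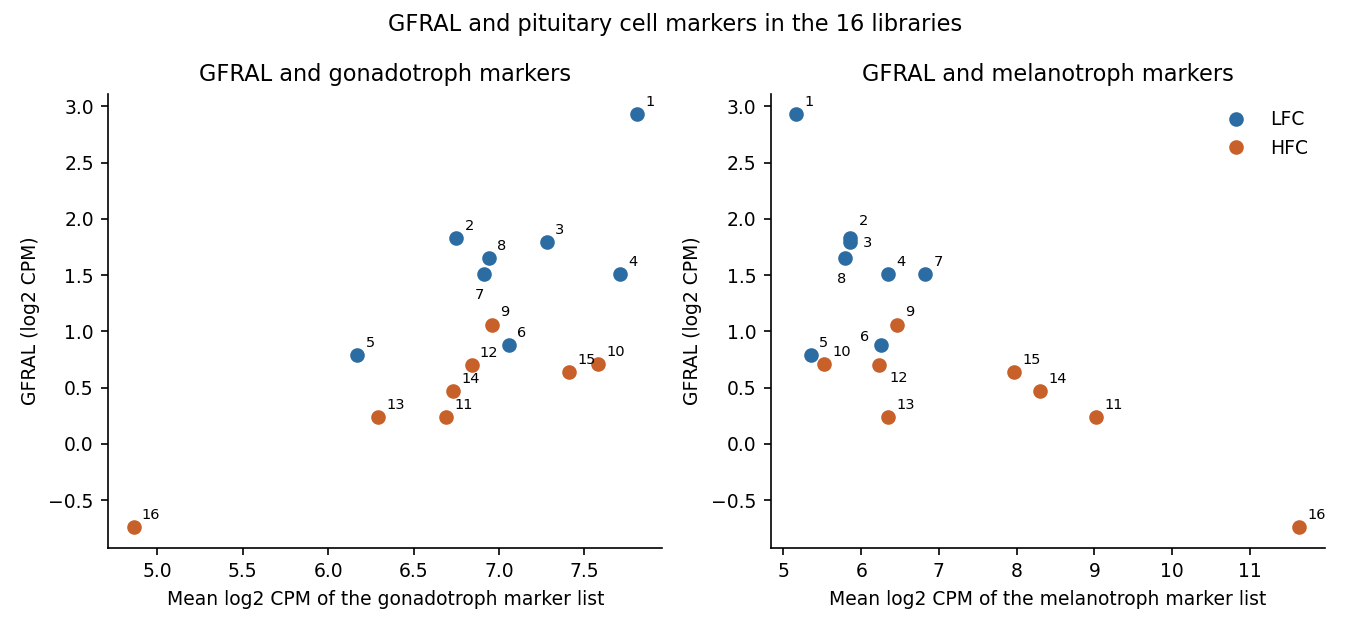
GFRAL (log2 CPM) against the mean log2 CPM of the gonadotroph list (left) and of the melanotroph list (right) in the 16 libraries, numbered by replicate. HFC replicate 16 lies at the end of both lists, at 4.86 and 11.64, with GFRAL at -0.74.

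Posterior lobe tissue also varied. The pituicyte list, 9 measured of 10, summed to 237.4 to 550.2 CPM in LFC and 126.6 to 2072 in HFC, and its mean log2 CPM was 3.17 in HFC against 1.93 in LFC. Low values of this list occurred in both groups, but the highest were in HFC. HFC replicates 16, 11, 14 and 13 had 5.58, 4.56, 4.36 and 4.09, against at most 3.23 in LFC. GFRAL in those HFC libraries was 0.436, 1.14, 1.19 and 0.970 CPM, the lowest values of the series. LFC replicate 1, which had the most GFRAL, was near the top of its own group at 3.20. With group means removed, GFRAL and the pituicyte list had r = -0.39 (permutation p = 0.131, adjusted 0.494). The Spearman coefficient was -0.54 (permutation p = 0.0455, adjusted 0.442). For the posterior lobe hormone genes AVP and OXT r was -0.38 (permutation p = 0.153, adjusted 0.521). Their Spearman coefficient was -0.56 (permutation p = 0.0327, adjusted 0.442). Without the 2 libraries farthest out r was -0.08 and -0.16. The part of posterior lobe tissue in the GFRAL difference was not tested.

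RET, the kinase that GFRAL needs for signalling, covered overlapping ranges in the groups, with a mean of 0.841 ± 0.327 CPM in LFC against 0.949 ± 0.864 in HFC. It lies on chromosome 14 from 61305818 to 61361416 (ENSSSCG00000010199), where RefSeq has no overlapping gene. RET was at 0.472, 0.778 and 1.39 CPM in LFC (lowest, median and highest) and at 0.176, 0.721 and 3.01 CPM in HFC. Both ends of the range were HFC libraries, and the other 14 lay between 0.472 and 1.39.

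Those values come from 2 to 33 counts per library, and RET had the fewest counts in all of the 4 members. In LFC the chi-square per degree of freedom of RET was 2.34, not far above counting error, and in HFC it was 9.62. HFC replicate 14 alone held 33 of the 107 HFC counts. The log2 fold change was 0.18 (SE 0.43) with all libraries and -0.38 without HFC replicate 14. The difference in RET was smaller than its SE. Its direction turned without that library, and with limma-voom on all libraries it was -0.07.

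HFC replicate 14 was also the library with the highest adipocyte list. That list, 8 measured of 8, had a mean log2 CPM of 2.49 there and -0.37 to 0.96 in the other 15. Its summed level was 15.2 to 38.9 CPM in LFC and 12.97 to 108.4 in HFC, and the defining genes ADIPOQ and LEP were at 0 in the lowest HFC library. RET and the list had r = 0.72 within groups (permutation p = 0.0265, adjusted 0.36) and a Spearman coefficient of 0.68 (permutation p = 0.0046, adjusted 0.156). Without HFC replicate 14 r was 0.29 (permutation p = 0.31, adjusted 0.651). The part of fat cells in the RET value of that library was not tested.

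Ligands of GFRAL and RET had few counts in the gland. GDF15, the ligand of GFRAL, had 72 counts over all 16 libraries, from 1 to 9 each, at 0.252 ± 0.143 CPM in LFC against 0.298 ± 0.124 in HFC. Among the RET ligands, GDNF had 31 counts, NRTN 33, ARTN 5 and PSPN 2 over all libraries. GDF15 and these 4 did not reach the filter, so no fold change is given.

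Co-receptors that pair RET with GDNF ligands were measured more deeply. GFRA1, which binds GDNF, was at 14.2 ± 9.39 CPM in LFC against 14.7 ± 8.06 in HFC, with a log2 fold change of 0.04 (SE 0.37). GFRA2, the neurturin co-receptor, had -0.68 (SE 0.63), which became -1.13 without HFC replicate 11 and -0.25 without LFC replicate 5, and GFRA3, the artemin co-receptor, -0.05 (SE 0.29). None of the 3 tested genes of this 9-gene list was called at an adjusted p of at most 0.05 with a fold of at least 1.3 (edgeR adjusted p = 1 for each). No gene of the whole table was called by edgeR either (0% of 14319), while 834 had an unadjusted p under 0.05.

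Adaptors and regulators of RET were all measured, and 16 of the 20 had a fold above 0, beside 6928 of all 14319 genes. A shift of the list as a whole was not tested. The median log2 fold change of the list was 0.16, beside -0.01 over all genes. DUSP6, a phosphatase that switches off the ERK kinases and rises when they are active, was the sole gene of the list at an unadjusted p under 0.05, higher in HFC by 0.74 (SE 0.34, edgeR adjusted p = 0.845). It ranged from 14.3 to 39.4 CPM in LFC and from 17.3 to 102.1 in HFC, with the top value in HFC replicate 16. Without that library DUSP6 had 0.29 (SE 0.23). PLCG1, a phospholipase that docks on RET, had 0.27 (SE 0.18, edgeR adjusted p = 0.992). Over all genes 4.29% had an unadjusted p under 0.05 and were higher in HFC, and 1.53% were lower.

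LEPR had the widest spread of the 4 members in the fit. It lies on chromosome 6 from 146802297 to 146896152 (ENSSSCG00000025188), and RefSeq lists 7 transcripts for it, which the gene counts do not separate. Its lowest, median and highest values were 0.0714, 9.12 and 15.5 CPM in LFC and 2.38, 7.09 and 16.4 CPM in HFC. The groups covered almost the same range, apart from LFC replicate 5, where LEPR had 1 count.

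Means were 8.00 ± 4.74 CPM in LFC against 8.31 ± 4.98 in HFC. The biological coefficient of variation of LEPR in the fit was 69.5%, against 42.9% for GFRAL, 53.9% for RET, 38.9% for INSR and a common value of 38.6%. The log2 fold change was 0.07 (SE 0.50), and leaving out each library in turn moved it between -0.11 and 0.26. With 1 surrogate variable as a covariate it was 0.63. The direction of the LEPR value thus changed with the libraries included.

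Low LEPR went with the libraries at the far end of the first principal component. LFC replicate 5, at 126.03 on that component, had 0.0714 CPM of LEPR, with an exact 95% Poisson interval of 0.00181 to 0.398. HFC replicate 13, at 75.11, had 2.38 CPM, and HFC replicate 14, at 56.93, had 4.56 CPM. LFC replicate 8 and HFC replicate 9, at the other end (-53.43 and -44.94), had 15.5 and 16.4 CPM. Since LEPR was among the genes behind that component, this is a description of the libraries and not a test. Low LEPR was not confined to them, as LFC replicate 4, at -23.54, had 4.14 CPM.

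LFC replicate 5 stood out in cell markers too. Its microglia and macrophage list was the highest of all at a mean log2 CPM of 5.78, against 3.30 to 5.18 in the others, with a summed level of 126.1 to 544.7 CPM in LFC and 196.2 to 464.2 in HFC, all 8 markers measured and none at 0. LEPR and this list had r = -0.72 within groups (permutation p = 0.0188, adjusted 0.36) and a Spearman coefficient of -0.42 (permutation p = 0.114, adjusted 0.705). Without the 2 libraries farthest out r was -0.16, so the relation rested on those. LEPR also had r = 0.41 with the neuron list (permutation p = 0.0337, adjusted 0.365). With the lactotroph list it had r = 0.37 (permutation p = 0.0529, adjusted 0.365). The Spearman coefficient was 0.54 for each (adjusted permutation p = 0.442). Without the 2 libraries farthest out r was 0.67 and 0.51. The part of any of these cell types in the LEPR value was not tested.

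LEP, the leptin gene, had 16 counts over 16 libraries, at most 6 in any. LEPROT, which encodes a transmembrane protein that holds leptin receptors back from the cell surface, is the neighbour of LEPR at a distance of 78.5 kb. It was steady at 48.0 to 89.8 CPM in LFC and 58.4 to 96.7 in HFC, a difference of 0.04 on the log2 scale (SE 0.11, adjusted p = 1 in edgeR). In LFC replicate 5 LEPROT was at 48.0 CPM, its lowest level, while LEPR had 1 count.

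Downstream genes of the leptin receptor showed no call. JAK2, the kinase bound to LEPR, was at 17.1 ± 9.54 CPM in LFC against 15.5 ± 5.16 in HFC, with a log2 fold change of -0.12 (SE 0.28). Its lowest value, 3.93 CPM, was in LFC replicate 5, and its highest, 37.5 CPM, in LFC replicate 8, the libraries with the least and the most LEPR in their group. STAT3, the transcription factor of the chain, had -0.02 (SE 0.14). SOCS3, a feedback inhibitor that STAT3 induces, had -0.31 (SE 0.40) and went to 0.22 without LFC replicate 1, which held 32.7 CPM. CISH, another inhibitor of the family, had -0.44 (SE 0.36) and PIAS3, an inhibitor of STAT3, 0.16 (SE 0.11). All 5 had an edgeR adjusted p of 1.

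Of the 18 genes in the leptin list 17 were tested, and 0 had an unadjusted p under 0.05 in either direction. Their folds were above 0 for 8 and below 0 for 9, with a median log2 fold change of -0.02. The list ran from -0.44 to 0.19, the narrowest span of the 5 lists.

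INSR means were close in the groups, with HFC libraries at both ends of the range. It lies on chromosome 2 from 71797209 to 71939923 (ENSSSCG00000013566). In LFC its lowest, median and highest values were 11.4, 18.1 and 23.6 CPM. In HFC they were 6.44, 16.5 and 37.2 CPM, so 3 HFC libraries lay below every LFC library and 2 above.

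Mean INSR was 17.6 ± 4.43 CPM in LFC against 18.2 ± 10.1 in HFC. The log2 fold change was 0.08 (SE 0.27) with all libraries. It was -0.21 (SE 0.22) without HFC replicate 16, which held 683 of the 2302 HFC counts, and 0.20 without HFC replicate 13. The spread between libraries was therefore wider than the difference of the means.

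INSR and LEPR were both low in HFC replicate 13. That library had the lowest INSR, 6.44 CPM, and the lowest LEPR of its group, 2.38 CPM. Within groups the genes had r = 0.35 (permutation p = 0.0436, adjusted 0.261 over 6 pairs of members) and a Spearman coefficient of 0.60 (permutation p = 0.0135, adjusted 0.0812), and r was 0.29 without the 2 libraries farthest out. GFRAL and LEPR had r = 0.49 (permutation p = 0.113, adjusted 0.34) with a Spearman coefficient of 0.48 (permutation p = 0.0625, adjusted 0.187). GFRAL and RET had r = 0.00 (permutation p = 0.991, adjusted 0.991) with a Spearman coefficient of 0.05 (permutation p = 0.868, adjusted 0.868). No pair of members passed the adjustment with all 16 libraries. Without HFC replicate 16 the rank correlation passed for GFRAL and LEPR, at 0.68 (permutation p = 0.00749, adjusted 0.0377), and for LEPR and INSR, at 0.64 (permutation p = 0.0126, adjusted 0.0377). Pearson's r did not pass there, with 0.61 (permutation p = 0.092, adjusted 0.184) and 0.44 (permutation p = 0.0295, adjusted 0.129).

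The insulin gene INS had 2 counts in the whole series, and INSRR, which encodes an orphan relative of the insulin receptor, had 29. IGF1R, the receptor of insulin-like growth factor 1 and the closest relative of INSR, was at 35.7 ± 10.9 CPM in LFC against 31.4 ± 11.5 in HFC. On the log2 scale HFC minus LFC was -0.17 (SE 0.21, adjusted p = 1 in edgeR). The docking proteins of the receptor differed in sign, with 0.27 (SE 0.29) for IRS1 and -0.43 (SE 0.40) for IRS2, neither of them called (edgeR adjusted p = 1 for each).

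Inside the insulin pathway, 35 of 40 genes were tested, and at an unadjusted p under 0.05 there were 3 higher and 1 lower in HFC. PIK3R1, the regulatory subunit of phosphatidylinositol 3-kinase, had the smallest p of the lists, being higher in HFC by 0.62 on the log2 scale (SE 0.21, adjusted p = 0.647 in edgeR). It lay at 23.3 to 45.6 CPM in LFC and at 28.0 to 79.5 in HFC, and all 8 HFC libraries were above the LFC mean on the log2 scale. The groups overlapped, and the highest HFC values were 79.5 CPM in replicate 16 and 67.5 CPM in replicate 11. The log2 fold change of PIK3R1 was 0.43 (SE 0.18) without HFC replicate 16. It was 0.35 (SE 0.19) without the 4 libraries that stood apart.

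SLC2A4, the glucose transporter GLUT4 that insulin brings to the surface of muscle and fat cells, had 1.79 (SE 0.70, edgeR adjusted p = 0.737). Its level was 2.28 to 6.64 CPM in LFC, whereas in HFC it reached 18.9 CPM in replicate 12 and 52.1 CPM in replicate 14, with the other 6 at 0.872 to 5.85. Without HFC replicate 14, the library with the highest adipocyte list, the log2 fold change was 0.62 (SE 0.49). It was 1.24 (SE 0.41) without the 4 libraries that stood apart, HFC replicate 14 among them. Without LFC replicate 5 it was 2.13 (SE 0.72). The part of fat cells in the SLC2A4 values was not tested.

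CAV1, the main protein of caveolae, had 1.12 (SE 0.44, edgeR adjusted p = 0.739), and 0.79 (SE 0.41) without HFC replicate 14. FOXO1, a transcription factor that insulin keeps out of the nucleus, was the gene lower in HFC, at -0.51 (SE 0.21, edgeR adjusted p = 0.788). Its mean was 23.1 ± 6.39 CPM in LFC against 16.4 ± 7.50 in HFC, and 7 of the 8 HFC values lay under the LFC mean on the log2 scale. Without the 4 libraries that stood apart, the log2 fold change of FOXO1 was -0.27 (SE 0.17). The median of the list was 0.01.

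**Figure D5:**
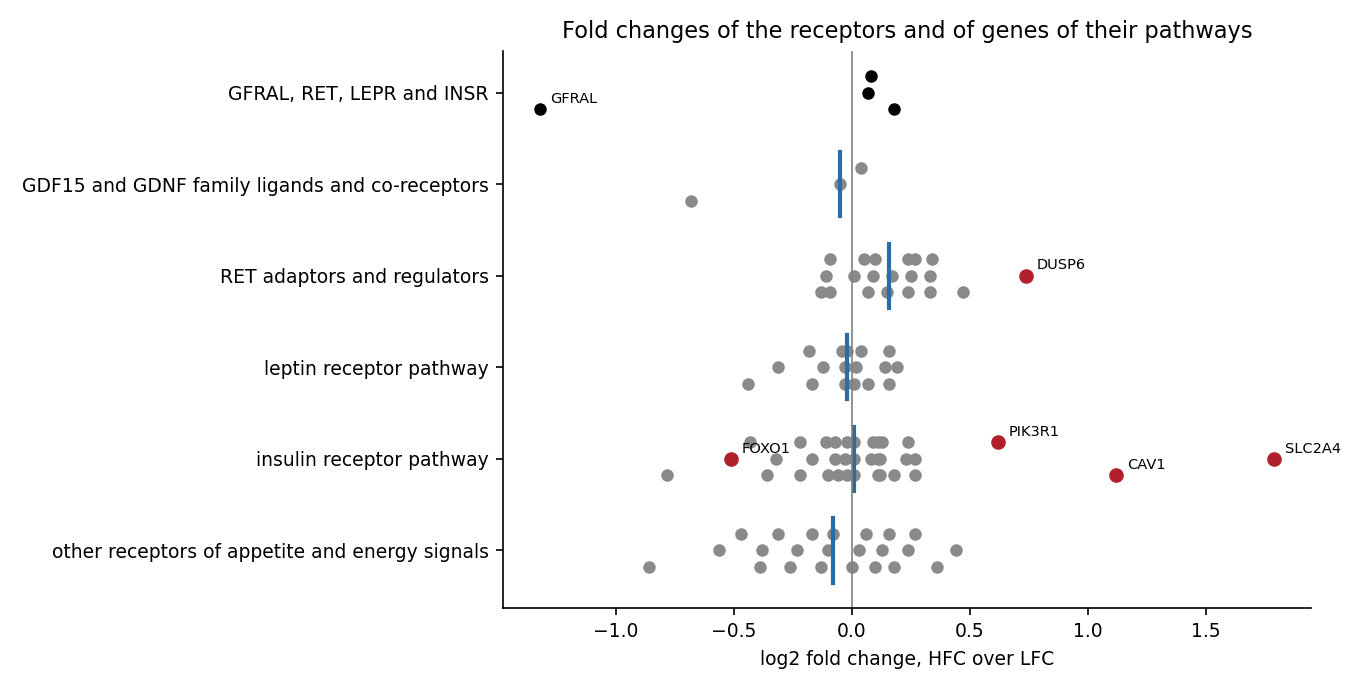
Log2 fold change of HFC over LFC for the 4 receptor genes (black) and the tested genes of 5 lists (grey, red at an unadjusted p under 0.05), with the median of each list as a blue line. GFRAL lies at -1.32, lower than every pathway gene tested, and the 5 red genes are DUSP6, PIK3R1, SLC2A4, CAV1 and FOXO1.

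Other receptors of appetite and energy signals gave 23 tested genes of 36, of which 0 had an unadjusted p under 0.05. Their folds ran from -0.86 to 0.44 with a median of -0.08. The lowest was GLP1R, the receptor of the gut hormone GLP-1, at 3.68 ± 2.99 CPM in LFC against 2.09 ± 2.40 in HFC, with an edgeR adjusted p of 1. Its log2 fold change of -0.86 became -0.45 without LFC replicate 8 and -1.36 without HFC replicate 9. GHR, the growth hormone receptor, had -0.39 (SE 0.36, edgeR adjusted p = 1). TFRC, the transferrin receptor, had the smallest p of the list at -0.47 (SE 0.26, edgeR adjusted p = 0.93), and it brings iron into the cell rather than reading an appetite signal. GHSR and MC4R were not analysed here.

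Over the 5 lists, 98 of 123 genes were tested. Of these, 4 were higher and 1 was lower in HFC at an unadjusted p under 0.05, or 4 and 1 of 98 beside 4.29% and 1.53% of all genes. DESeq2 on the same genes called 0 of the 98 and 6 of all genes, and limma-voom called 0 of both. The study, with DESeq2 at the same adjusted p and fold, lists PIK3R1, DUSP6 and CAV1 among its differentially expressed genes in this breed. Why the calls differ was not tested. Of the 4 receptors, 0 had groups that did not overlap in CPM, beside 0.00698% of all genes tested (1 gene).

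The genes whose levels ran most like each receptor were looked up with the group means removed, as a description over 16 libraries that share depth and tissue make-up. For GFRAL they were GLDN (r = 0.88), a secreted protein of peripheral nerve nodes, MAK (r = 0.85), a kinase of cilia, and EYA4 (r = 0.82), a developmental phosphatase, and without the 4 libraries that stood apart r was 0.79, 0.78 and 0.64 over 12. For INSR they were BCR (r = 0.92, then 0.83), SRGAP2 (r = 0.92, then 0.78) and SLC24A2 (r = 0.91, then 0.80), an ion exchanger.

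For LEPR the likeness was closest, with the ribosome recycling factor ABCE1 (r = 0.96), SEC23IP (r = 0.95), which acts in vesicle traffic, and the Integrator subunit INTS6 (r = 0.95), and it dropped to 0.75, 0.61 and 0.73 without those libraries. For RET they were TEAD4 (r = 0.80, then 0.58), a transcription factor, PGM2L1 (r = 0.79, then 0.55) and ADSSL1 (r = 0.78, then 0.35), both enzymes. The likeness of RET and LEPR to these genes thus lost more than that of GFRAL or INSR when those libraries were left out.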

How the data were processed

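Poly(A) libraries of pituitary RNA (TruSeq, no strand) were read as single ends in technical repeats. The authors, per the methods and the labels, used FastQC and Flexbar to clean the reads and RSEM with STAR to align and count them on Sscrofa11.1 (DESeq2 is also named), and deposited whole-number counts per Ensembl gene, not normalised. Whether RSEM estimates were rounded is not given in the sources used here. A separate deposited table holds the authors' own comparison (means, fold, p-values), of which only symbols and positions were used.

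Symbols came from that table (10091 genes), a gene name table (5454) and a position overlap of at least 50% with a RefSeq gene (286); 10049 genes had none. All 16 libraries differed beyond counting error (chi-square per degree of freedom at least 27.1 in 56 pairs within groups), so all were kept.

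The deposited counts were fitted with edgeR 4.0.16 in R 4.3.3 (glmQLFit and glmQLFTest, TMM, filterByExpr, group only, 14319 genes kept and 11561 removed), after a test on simulated data. Calls needed an adjusted p (Benjamini-Hochberg, over all genes kept) of at most 0.05 and a fold of at least 1.3. Log2 CPM used TMM and a prior count of 2, and CPM used total counts. Biological variation is the gene-wise coefficient of the fit. Correlations used log2 CPM minus group means, with 100000 two-sided permutations within groups and Benjamini-Hochberg adjustment (scipy 1.17.1). Alternatives used DESeq2 1.42.0, limma 3.58.1, sva 3.50.0, other scalings and filters, and libraries left out. The labels name the gilts only by group and number, so p-values measure the spread between these glands. Poisson intervals (95%) cover counting error only.

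The members, lists and tests were chosen with earlier results of these data known. Genes were named by rule: the members, 15 partners, the 2 genes of smallest p in each of 5 pathway lists, and the 3 genes most like each member. CAV1 and FOXO1 fell outside this rule and were named because their unadjusted edgeR p was under 0.05. HMGCLL1, HCRTR2 and genes named by count alone (GDNF, NRTN, ARTN, PSPN and INS) were added after the values were seen. AKT1, TSC1, SLC2A1, NPY4R, CCKAR, CCKBR and BRS3 of the lists were not analysed here.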

Additional observations from a re-analysis of the deposited data

Results flagged for a closer look

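In a group of 8 libraries a value was taken as far from the rest when its gap to the nearest, as a share of the group's range, exceeded Dixon's 95% critical value. Over the 8 checks made (4 receptors in 2 groups) chance gives about 0.4, and 2 values passed. LEPR in LFC replicate 5 had a log2 CPM of -2.23, while the rest of that group had 2.07 to 3.90, a gap of 0.70 of the range. GFRAL in HFC replicate 16 had -0.74, while the rest of that group had 0.24 to 1.06, a gap of 0.54 of the range, which is close to the limit. Both libraries also stood apart over all genes.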

How the results depend on the processing

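GFRAL stayed below 0 in all 30 alternatives run, 1 of which was the ratio to HMGCLL1. These alternatives reuse the counts on which GFRAL was chosen, so they are no further support for its difference. RET, LEPR and INSR had folds smaller than their SE with all libraries. RET and LEPR turned below 0 in 6 of 29 each and INSR in 4 of 30, with 1 more at 0. The cause of these and the following changes was not tested. Against 0 of all genes called, DESeq2 called 6. Against 5 pathway genes at an unadjusted p under 0.05, limma-voom gave 2, total count scaling 3, 1 surrogate variable 12, and leaving out HFC replicates 14 and 16 together (chosen after the data were seen) 0. With each library left out the lowest count was 2 (HFC replicate 14 removed) and the highest 10 (LFC replicate 5 removed). No relation passed the adjustment by both Pearson and Spearman under any alternative, and without HFC replicate 16 GFRAL with LEPR and LEPR with INSR passed by Spearman alone (adjusted 0.0377 for each). The relations without HFC replicate 14 or 16 and the ratio to HMGCLL1 were chosen after the data were seen.

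Folds of uncalled genes crossed 0. With 1 surrogate variable, GFRA3 had 0.02, JAK2 0.16 and STAT3 0.06. Without the 4 libraries that stood apart, GFRA3 had 0.10 and IRS1 -0.08. Without LFC replicate 5 and HFC replicate 14, IRS1 had -0.06. Without these and HFC replicate 13 (chosen after the data were seen), GFRA3 had 0.11 and LEPROT -0.01. Without HFC replicates 14 and 16, IRS1 had -0.08 and STAT3 0.01. With each library left out, the ranges were -0.15 to 0.35 for GFRA1, -0.19 to 0.10 for GFRA3, -0.25 to 0.14 for JAK2, -0.01 to 0.09 for LEPROT, -0.51 to 0.22 for SOCS3 and -0.09 to 0.03 for STAT3.

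A minimum of 10 counts in every library removed GFRAL, RET and LEPR. The planned order of the receptors by level per length was not run, since no exon lengths were used. No paired analysis was possible because the groups share no replicate numbers. RET and GFRAL had the fewest counts of the 4 receptors.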
